A study of Mus musculus with 3 samples.

Results

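The cells described here were macrophages of the dorsal root ganglion (DRG) with the RNA profile of resident tissue macrophages: they carried RNA of Mrc1, Pf4, F13a1 and Stab1 and had no UMI of Ccr2. They numbered 355 of 551 macrophages and of 9662 kept cells from 3 single-cell RNA libraries. A barcode was kept when it had at least 500 genes and at most 20% of its UMIs (unique molecular identifiers, 1 per captured RNA molecule) from mitochondrial genes. A macrophage was a kept cell with a UMI of at least 3 of the 6 genes Csf1r, C1qa, C1qb, Aif1, Cd68 and Mpeg1. It had at most 1 UMI of each of the pairs Pecam1 and Cdh5 (endothelial cells), Mag and Prx (myelinating Schwann cells) and Snap25 and Rbfox3 (neurons), and at most 5 UMIs of the neutrophil gene S100a9. A member had at least 3 UMIs summed over Mrc1, Pf4, F13a1 and Stab1 and 0 UMIs of Ccr2. All members were thus chosen by measured RNA, and the genes of the rule are given below as a description only.

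The libraries came from L3 and L4 DRGs of both sides of male wild-type C57BL/6J mice in postnatal week 13. The naïve mice had no operation, and the other mice had spared nerve injury (SNI) in both hindlegs, 7 or 14 days before dissection. The deposited names of both SNI libraries, but not of the naïve library, also hold the letters PBS, which no label explains, so whether a further step set them apart is not given in the sources used here. There was 1 library for each condition, a pool of 8 ganglia from 2 mice that were perfused before dissection, and the ganglia were dissociated with collagenase and dispase. The pooled mice cannot be told apart within a library, so no difference between conditions below has a replicate check, and no test was made. Intervals are 95% and cover counting error only: several UMIs from 1 cell make the true spread wider.

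Resident macrophages live in the ganglion among neurons, satellite glia and vessels. They take up debris and proteins through scavenger receptors such as the mannose receptor Mrc1, present antigen on MHC class II, and release chemokines that draw other leukocytes. After injury of a peripheral nerve, macrophages accumulate in the ganglion around the cell bodies of the injured neurons, and monocytes that express the chemokine receptor Ccr2 can enter from blood.

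The naïve library held 47 members among 70 macrophages and 3152 kept cells. The SNI day 7 library held 132 members among 212 macrophages and 2682 kept cells. The SNI day 14 library held 176 members among 269 macrophages and 3828 kept cells. Members were thus 1.49% (1.10 to 1.98, exact Clopper-Pearson interval) of kept cells in the naïve library, 4.92% (4.13 to 5.81) at day 7 and 4.60% (3.96 to 5.31) at day 14. The share was 3.30-fold and 3.08-fold that of the naïve library at days 7 and 14, and the intervals of both injured libraries lay above the naïve interval and overlapped each other. Among macrophages the share of members was 67.1% (54.9 to 77.9) in naïve ganglia, 62.3% (55.4 to 68.8) at day 7 and 65.4% (59.4 to 71.1) at day 14, with intervals that overlapped. The macrophages with Ccr2 RNA or few UMIs of the 4 genes, called other macrophages below, therefore stood at a like share of macrophages in each library, with 23, 80 and 93 cells. A share of dissociated cells depends on how every other cell type survived dissociation, so these values are not cells per ganglion.

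**Figure D1:**
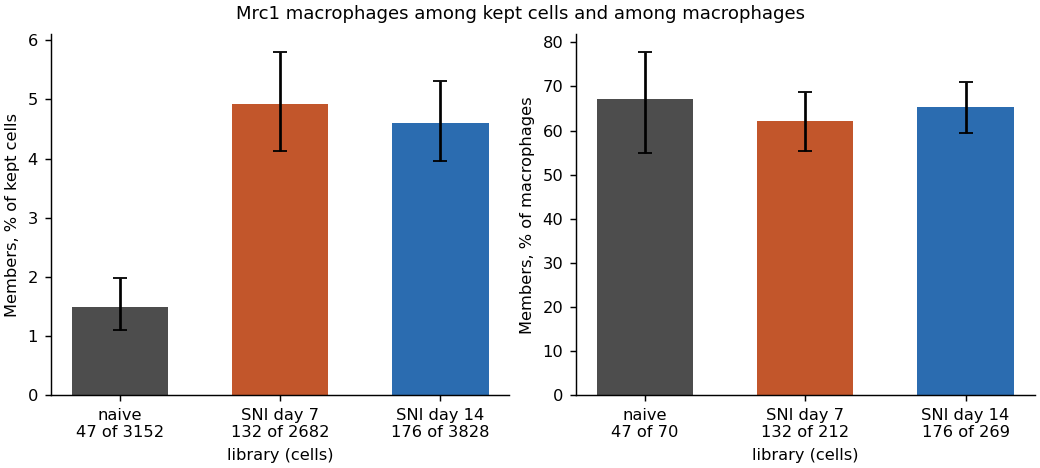
Members as a percentage of all kept cells and of macrophages in each library, with bars for the percentage and error bars for the exact 95% Clopper-Pearson interval. The share of kept cells is 1.49% in the naïve library, 4.92% at day 7 and 4.60% at day 14, whereas the share of macrophages lies between 62.3% and 67.1%.

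Few cells sat at the border of the rule. The UMIs of the 4 genes summed to a median of 17 per naïve member, 32 at day 7 and 20 at day 14. Macrophages without Ccr2 that missed the 4-gene threshold numbered 2, 3 and 8, of which 0, 2 and 3 had a sum of 2 UMIs, just outside it. Members just inside it, with a sum of 3 UMIs, numbered 1, 2 and 3. The Ccr2 condition mattered more: 9, 63 and 61 macrophages passed the 4-gene threshold but had a UMI of Ccr2, and in 3, 9 and 8 of them it was a single UMI. The members were shallower than these cells (median 2044, 3868 and 3482 UMIs per member against 4531, 5570 and 4184).

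The depth behind the values differed between the libraries. The summed UMIs of members were 109406 in the naïve library, 585404 at day 7 and 757725 at day 14. Summed UMIs were scaled to counts per 1000000 (CPM), so that 1 naïve UMI is worth 9.14 CPM, and a gene with 0 naïve UMIs could still have stood at up to 27.4 CPM, the level of 3 UMIs. The same limit was 5.12 CPM at day 7 and 3.96 CPM at day 14. Kept cells outside the macrophages had a median of 3090, 3972 and 4235 UMIs. RNA set free during dissociation also gives UMIs in cells that do not express a gene, so the level in these remaining cells is given beside results that it touches. No cell barcode of a member was shared between libraries, and 0, 1 and 2 members were called doublets by Scrublet.

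The identity of the cells was checked on genes outside the rule. Cd163, the haemoglobin scavenger receptor of resident macrophages, stood at 960, 815 and 546 CPM in members of the naïve, day 7 and day 14 libraries, against 119, 133 and 80.6 CPM in other macrophages. Maf, a transcription factor of mature macrophages, stood at 2806, 3442 and 3010 CPM against 605, 1248 and 762 CPM. C1qc, a chain of complement C1q, stood at 3784, 4125 and 3107 CPM against 1661, 2377 and 1454 CPM. All of these were higher in members than in other macrophages in each library. Mertk, a receptor for the uptake of dying cells, stood at 137, 219 and 139 CPM, and its ligand Gas6 at 484, 774 and 492 CPM, 4.54-fold, 4.39-fold and 6.89-fold the level of other macrophages. Other resident genes were sparse. Folr2, the folate receptor of many resident macrophages, stood at 110, 172 and 77.9 CPM. Lyve1, a hyaluronan receptor that marks vessel-associated macrophages, had only 4, 13 and 4 UMIs in 3, 10 and 3 members. Vsig4 had no UMI in any library, and Timd4 had 1, 8 and 1 UMIs. The label of resident-type macrophages thus fits the scavenger genes, with Lyve1 and Timd4 close to absent at this depth.

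The genes of the rule, given as a description, stayed high in all libraries. Mrc1 (ENSMUSG00000026712) stood at 2157 CPM (1891 to 2451, exact Poisson interval) in naïve members, 2791 at day 7 and 1803 at day 14, and had a UMI in 97.9%, 99.2% and 96.6% of members. Stab1, a scavenger receptor, stood at 2998, 2839 and 2320 CPM, and F13a1, a transglutaminase, at 923, 1572 and 1077 CPM. Pf4, a platelet-type chemokine, stood at 2431, 2058 and 1276 CPM, so that day 14 was 1.91-fold lower than naïve. Csf1r, the receptor for the growth factor on which macrophages depend, was level: 2541, 2600 and 2407 CPM. Mrc1 RNA was nearly confined to macrophages, since the remaining cells stood at 0.618, 5.83 and 4.29 CPM.

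Proliferation genes were close to absent. Mki67 had 0, 24 and 1 UMIs in the members of the 3 libraries, and 22 of the day 7 UMIs came from 1 cell. Top2a had 0, 28 and 2 UMIs, 26 of them in 1 day 7 cell. Members with a UMI of at least 3 of 8 mitotic genes numbered 0, 2 and 0, so few members carried mitotic RNA at the days sampled. Days before day 7 were not measured. Of 13 proliferation genes 2 were tested, and Stmn1, a tubulin-binding protein, was higher at both days (27.4, 94.0 and 88.4 CPM), on 3 naïve UMIs and at 842, 796 and 905 CPM in the remaining cells.

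Between conditions, a gene was called higher or lower when the ratio of log2(CPM + 10) levels passed 2-fold, among genes with a UMI in at least 10% of members of either library. Of 5714 genes at day 7 over naïve, 452 (7.91%) were higher and 233 (4.08%) lower. Of 5852 genes at day 14 over naïve, 548 (9.36%) were higher and 302 (5.16%) lower. Day 14 over day 7 had fewer calls, with 108 (1.77%) higher and 83 (1.36%) lower of 6118 genes, but depth differed between these comparisons. Among the genes with more molecules given below, its counts lay closer to those of day 7 over naïve. The naïve members had the fewest UMIs, and 85 of the genes called higher at day 7 and 101 at day 14 had 0 naïve UMIs. Scaling with TMM library sizes moved the all-gene median of day 7 over naïve by 0.10 on the log2 scale and the higher share of its calls from 66.0% to 77.0%.

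Genes with a mean of at least 100 CPM over the 3 libraries of members rest on more molecules, and this limit was set after seeing the data. Of 1714 such genes, 35 (2.04%) were higher and 36 (2.10%) lower at day 7 over naïve. At day 14 over naïve 37 (2.16%) were higher and 86 (5.02%) lower. At day 14 over day 7 19 (1.11%) were higher and 39 (2.28%) lower. Most of the genes higher at day 14 were also abundant outside the macrophages: only 15 of the 37 stood in members at or above the level of the remaining cells, against 27 of 35 at day 7, and 82 of the 86 lower genes did.

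**Figure D2:**
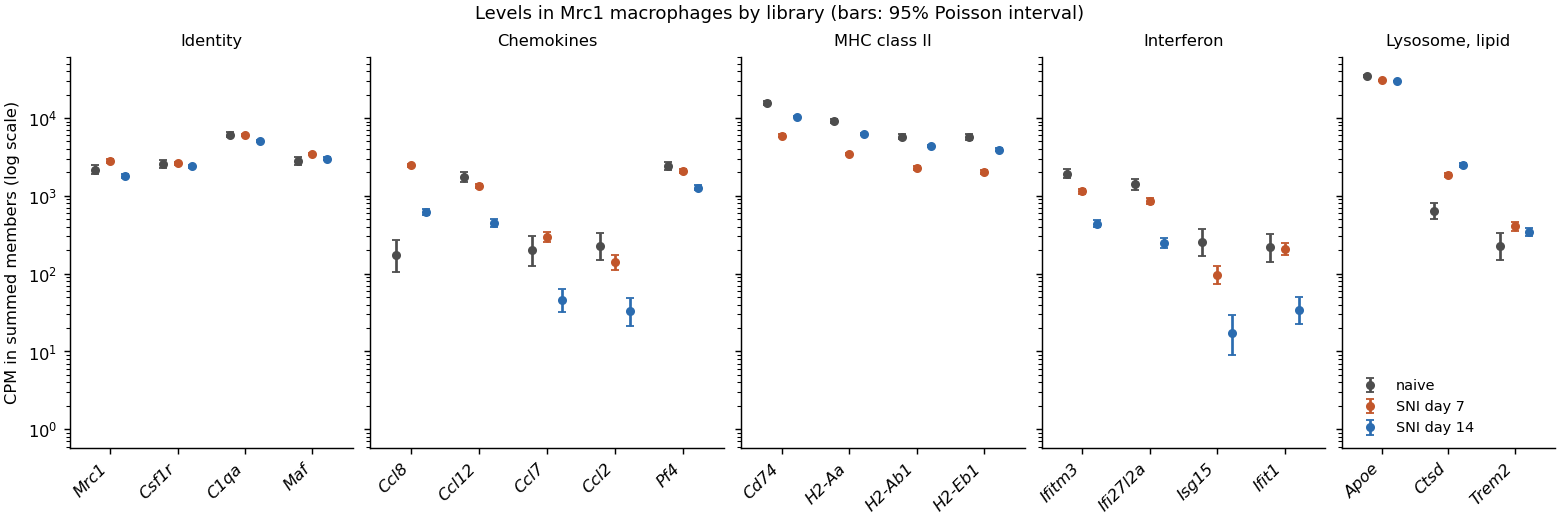
Levels of 20 genes in members of the naïve, day 7 and day 14 libraries, in CPM on a log axis, with points for the summed level and bars for the exact 95% Poisson interval. Ccl8 stands at 174, 2462 and 624 CPM, the 4 MHC class II genes are lowest at day 7, and the 4 interferon-response genes are lowest at day 14.

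Among chemokines, Ccl8 was the one called higher after SNI. Ccl8 (ENSMUSG00000009185), a ligand for chemokine receptors of monocytes and lymphocytes, had 19 UMIs in naïve members, 1441 at day 7 and 473 at day 14, or 174 CPM (105 to 271), 2462 CPM (2336 to 2592) and 624 CPM (569 to 683). Day 7 was 14.2-fold (9.04 to 23.6) and day 14 3.59-fold (2.28 to 6.02) the naïve level, and day 14 was 3.94-fold (3.55 to 4.38) lower than day 7. The 3 intervals did not overlap. A Ccl8 UMI was found in 14.9%, 68.9% and 44.9% of members, against 0.0973%, 1.30% and 0.843% of the remaining cells. With cells of at least 1000 UMIs thinned to 1000 UMIs, the shares of members were 9.93%, 51.4% and 27.4%. The RNA was uneven among members: the 10 members with most Ccl8 held 51.5% of its UMIs at day 7 and 53.7% at day 14, and the highest single cell held 161 and 69 UMIs. Per cell, the median Ccl8 level was 0, 819 and 0 CPM. In other macrophages Ccl8 stood at 35.6, 298 and 44.0 CPM, lower than in members in each library.

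The other monocyte-attracting chemokines did not follow Ccl8. Ccl12 stood at 1755, 1339 and 446 CPM, so that day 14 was 3.93-fold (3.28 to 4.71) lower than naïve and 3.00-fold lower than day 7. Ccl7 stood at 201, 294 and 46.2 CPM, 4.35-fold (2.43 to 7.63) lower at day 14 than in naïve members. Both were thus lowest at day 14. Ccl2 stood at 229, 140 and 33.0 CPM, 6.93-fold (3.82 to 12.6) lower at day 14, but 15 of its 25 naïve UMIs came from 1 cell. Its direction turned when kept cells were thinned to 2000 UMIs (a log2 ratio of 0.37). That setting leaves out cells with fewer than 2000 UMIs. Naïve members had a median of 2044 UMIs, so many of them were not in it. Cxcl10, an interferon-induced chemokine, stood at 238, 10.3 and 13.2 CPM, 23.2-fold (9.33 to 68.9) and 18.0-fold (8.40 to 41.8) lower after SNI, with 17 of its 26 naïve UMIs in 1 cell. Ccl9 stood at 229, 99.1 and 84.5 CPM and was called lower at both days. Of the 15 chemokines listed, 10 were tested at day 7 over naïve, with 1 higher (Ccl8) and 2 lower, beside 7.91% and 4.08% of all genes. Their median log2 ratio was −0.29, beside 0.05 over all genes. At day 14 over naïve 1 of 10 was higher and 5 lower, beside 9.36% and 5.16% of all genes, with a median of −1.13. Ccl6 stood at 165, 137 and 139 CPM and Cxcl16, the ligand of Cxcr6, at 283, 296 and 301 CPM.

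Chemokine receptors were mostly level. Ccr1 stood at 27.4, 191 and 58.1 CPM, 6.98-fold (2.33 to 34.3) higher at day 7 on only 3 naïve UMIs, and 3.29-fold lower at day 14 than at day 7. Cxcr4, the receptor for Cxcl12, stood at 36.6, 13.7 and 81.8 CPM, with day 14 5.99-fold (2.86 to 14.5) the level of day 7. The remaining cells held Cxcr4 at 92.8, 78.0 and 62.0 CPM, above the members in the naïve and day 7 libraries. Of the receptors tested, 1 of 5 was higher at day 7 over naïve, beside 7.91% of all genes, and 0 of 6 passed 2-fold at day 14.

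The classical inflammatory cytokines were near the detection limit. Il6, Nos2 and Ptgs2 had 0 UMIs in members of all libraries. Il1b had 1, 8 and 19 UMIs and Tnf 6, 5 and 6 UMIs. Of 14 inflammatory genes, 5 were tested at day 7 and 4 at day 14, and none passed 2-fold; 7, 4 and 5 of the 14 had 0 UMIs. The alternative-activation genes Retnla and Chil3 had 0 UMIs and Arg1 had 0, 1 and 0. The growth factor Igf1 stood at 375, 552 and 521 CPM, and the cytokine Tgfb1 at 210, 190 and 136 CPM. Of the repair list, 0 of 8 genes passed 2-fold at day 7 and 0 of 9 at day 14. The ligands Il1b, Tnf and Il6 were therefore hardly measurable here in members of either injured library.

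RNA of the MHC class II genes was lower at day 7. These genes encode the chains that show peptides to CD4+ T cells, the invariant chain Cd74, the loading proteins H2-DMa and H2-DMb1, and Ciita, the transcriptional activator of the set. Cd74 stood at 15511, 5936 and 10381 CPM, 2.61-fold (2.46 to 2.77) lower at day 7 and 1.49-fold (1.42 to 1.57) lower at day 14 than in naïve members. H2-Aa stood at 9085, 3442 and 6208 CPM, 2.64-fold (2.44 to 2.85) lower at day 7. H2-Ab1 stood at 5768, 2280 and 4383 CPM, and H2-Eb1 at 5722, 2038 and 3926 CPM. The 4 genes thus shared one order, naïve highest and day 7 lowest. Ciita followed the same order at 210, 92.2 and 119 CPM, 2.28-fold (1.33 to 3.78) lower at day 7, whereas H2-DMa (585, 335 and 389 CPM) and H2-DMb1 (311, 174 and 256 CPM) stayed inside 2-fold. The costimulatory gene Cd86 stood at 73.1, 118 and 147 CPM. Of 8 class II genes tested, 5 were lower at day 7 over naïve, beside 4.08% of all genes, with a median log2 ratio of −1.22, and 0 passed 2-fold at day 14, with a median of −0.55. In other macrophages the day 7 median was −0.55 and in the remaining cells 0.03. Cd74 in other macrophages stood at 20889, 14783 and 18398 CPM.

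The Ccr2 condition touched this result. With Ccr2 left out of the rule, H2-Aa at day 7 over naïve had a log2 ratio of −0.91 and Cd74 of −0.86, both inside 2-fold and still below naïve.

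Promoters of class II genes are known to carry a Y box, and the windows at hand were searched for it. The search took 8 class II genes, with Cd40 in place of Cd74 of the 8 tested above. Of these, 4 had a RefSeq promoter window (250 bases before to 50 after the start, GRCm38.p6). In 2 of the 4, H2-Aa and H2-Eb1, the window held the Y box letters CTGATTGG on either strand. These letters were in 1346 of 32851 RefSeq windows (4.10%). The windows around the match are shown 5′ to 3′ on the strand of the gene, with the Y box in capitals, because these are the promoters of 2 of the genes that were lower at day 7. H2-Aa lies on the minus strand at chr17:34287842-34287899 and H2-Eb1 on the plus strand at chr17:34305780-34305837.
H2-Aa: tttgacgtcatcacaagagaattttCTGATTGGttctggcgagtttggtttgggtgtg
H2-Eb1: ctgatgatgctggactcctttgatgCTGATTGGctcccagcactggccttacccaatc
The windows of H2-DMa and H2-DMb1 held no match, which says only that these letters are not in the window. A match is a description and not a measured binding site.

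Members differed widely among themselves in class II RNA. The summed level of Cd74, H2-Aa, H2-Ab1 and H2-Eb1 per cell had a median of 34394 CPM in naïve members, 10833 at day 7 and 29106 at day 14. The lower quartile was 18035, 1144 and 9347 CPM. Members under 10000 CPM, a limit chosen after the values were seen, numbered 8 (17.0%, 7.65 to 30.8), 63 (47.7%, 39.0 to 56.6) and 47 (26.7%, 20.3 to 33.9). The day 7 interval lay above the interval of the naïve library and above that of day 14. Members within 1.5-fold of the limit numbered 4, 16 and 21, and the order was the same at limits of 5000 CPM (12.8%, 40.9% and 17.6%) and 20000 CPM (25.5%, 66.7% and 38.1%). Within the low cells the class II level was 2793, 1873 and 3623 CPM, and within the high cells 41836, 28048 and 35413 CPM, so that the high members of day 7 also stood below those of the naïve library. Low members were not the shallower ones after SNI: their median was 4452 and 3957 UMIs at days 7 and 14, against 3507 and 3402 in high members. Other macrophages under the same limit numbered 2, 19 and 5 (8.70%, 23.8% and 5.38%).

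**Figure D3:**
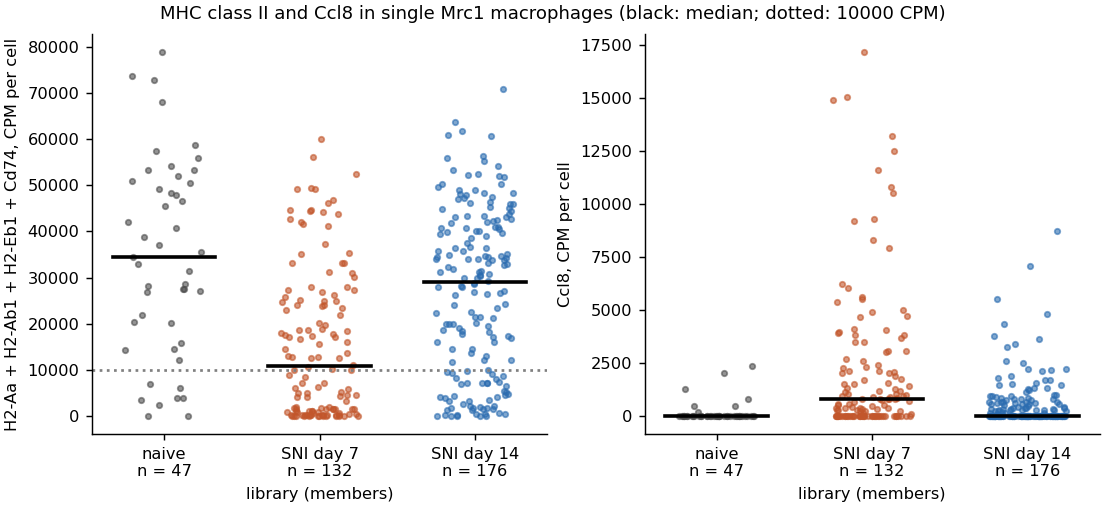
Per-cell CPM of the 4 summed class II genes (left panel) and of Ccl8 (right panel) in the members of each library, on linear axes. Each point is 1 member, black bars are medians and the dotted line marks 10000 CPM. At day 7, 47.7% of members lie under the line, and the class II median is 10833 CPM against 34394 CPM in the naïve library.

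Few genes differed between class II low and high members in both injured libraries. Of 7591 genes, 35 (0.461%) were at least 2-fold higher and 18 (0.237%) at least 2-fold lower in low members in both injured libraries. Of the 35, 8 stood at or above the level of the remaining cells, among them Slc40a1, the iron exporter ferroportin. Genes named from this split were chosen after their values were seen. Slc40a1 stood at 190 CPM in low and 34.0 CPM in high members at day 7 (5.58-fold, 2.76 to 12.8), and at 116 and 31.6 CPM at day 14 (3.67-fold, 1.93 to 7.23). In the naïve library it stood at 434 and 107 CPM, 4.05-fold (1.31 to 11.8) higher in the 8 low members, on 7 and 10 UMIs. Slc40a1 was picked because both injured libraries passed 2-fold, so only the naïve value stands outside that choice.

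Of the class II genes that did not enter the split, Ciita, H2-DMb1 and H2-DMa were lower in low members, and Cd86 was level (109 against 129 CPM at day 7, 140 against 150 CPM at day 14). Ciita stood at 18.7 CPM in low and 182 CPM in high members at day 7, 9.71-fold lower, and at 23.9 and 166 CPM at day 14, 6.92-fold lower. H2-DMb1 was 6.07-fold and 6.88-fold lower and H2-DMa 2.82-fold and 3.24-fold lower in low members. The resident genes differed less at days 7 and 14, apart from Folr2. Mrc1 stood at 2932 CPM in low and 2621 in high members at day 7, and at 1768 and 1820 at day 14. Cd163 stood at 900 and 711 CPM and then at 555 and 542 CPM. Ccl8 stood at 2670 CPM in low and 2208 CPM in high members at day 7, and at 690 and 592 CPM at day 14. Folr2 was 5.12-fold (2.89 to 9.75) higher in low members at day 7, with 271 against 52.9 CPM, and 1.20-fold at day 14. In the naïve library, with 8 low members, Folr2 was 11.6-fold (3.10 to 52.5), Cd163 1.91-fold (1.17 to 3.00) and Stab1 1.75-fold (1.33 to 2.27) higher in low members.

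Members with satellite glia RNA, described further on, sat on both sides of the split. At day 14, 6 of the 47 low members had at least 5 UMIs of the glial gene Fabp7, and they held 78228 of the 250618 UMIs of the low group (31.2%), so the day 14 levels of low members above include much RNA of these cells. There were 3 such cells among the high members of day 14, 1 among those of day 7, and 0 in the naïve library. Without these cells, an alternative added after seeing the data, 17 genes were higher and 14 lower in low members in both injured libraries, 11 and 10 of them among the 35 and 18 above. At day 14 Mrc1 then stood at 2483 CPM in low and 1833 in high members (1.35-fold, 1.20 to 1.52), Cd163 at 801 and 542 CPM (1.48-fold, 1.19 to 1.82) and Ccl8 at 1004 and 612 CPM (1.64-fold, 1.35 to 1.98). Folr2 was 1.60-fold (0.888 to 2.80) and Slc40a1 5.44-fold (2.82 to 10.9) higher in low members, and Ciita was 5.69-fold lower. Slc40a1 and Ciita thus kept their direction, and Mrc1, Cd163 and Ccl8 stood above the high members.

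Across members, the Spearman correlation of class II with Ccl8 was 0.14, −0.16 and −0.01 in 47, 132 and 176 cells, a description of cells that share a library.

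**Figure D4:**
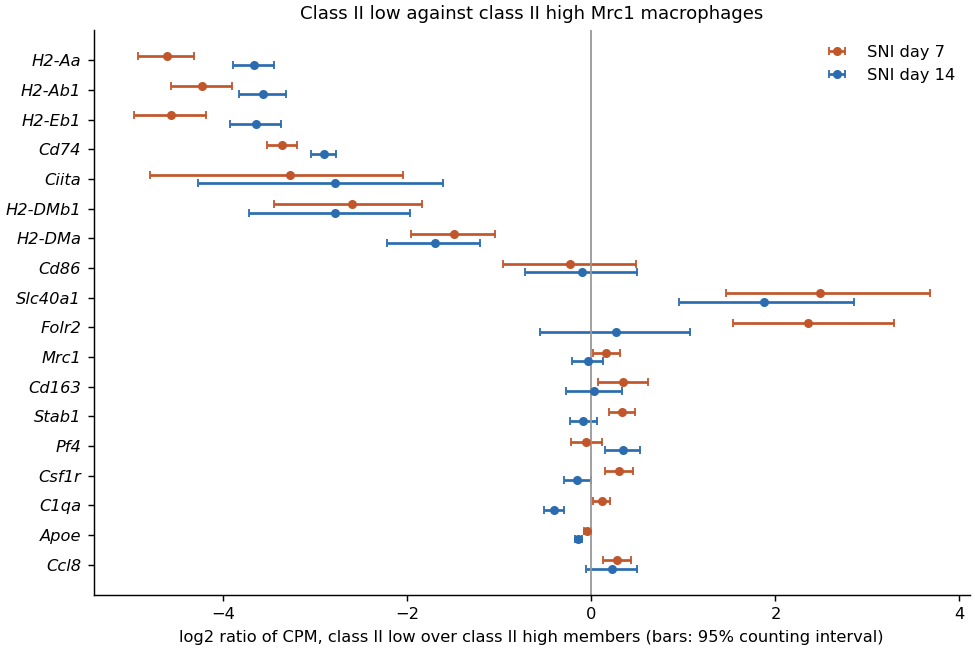
Log2 ratio of the level in class II low members over that in class II high members for 18 genes at day 7 and day 14, with 95% counting intervals. H2-Aa, H2-Ab1, H2-Eb1 and Cd74 set the split. Ciita, H2-DMb1 and H2-DMa lie below 0 and Slc40a1 above 0 in both libraries, while Mrc1 and Ccl8 lie near 0. Members with 5 or more Fabp7 UMIs are included, and they hold 31.2% of the UMIs of the low group at day 14.

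Interferon-response genes were lower after SNI, most of all at day 14. These genes are switched on by interferons through a promoter element, the ISRE, and many encode antiviral proteins. Isg15 (ENSMUSG00000035692), a ubiquitin-like protein, stood at 256, 97.4 and 17.2 CPM, 2.63-fold lower at day 7 and 14.9-fold (7.48 to 31.4) lower at day 14 than in naïve members. The day 7 call was lost when members needed at least 6 UMIs of the 4 genes (Isg15 log2 ratio −0.41) or without the cell with most Isg15 UMIs in each library (−0.80). Ifitm3, a membrane protein against virus entry, stood at 1929, 1139 and 438 CPM, 4.40-fold (3.69 to 5.25) lower at day 14. Ifi27l2a stood at 1408, 868 and 248 CPM, 5.67-fold (4.55 to 7.06) lower at day 14. These 3 genes were each in the order naïve, day 7, day 14. Ifit1, which binds foreign RNA, stood at 219, 208 and 34.3 CPM, so that it was level at day 7 and 6.39-fold lower at day 14. The interferon regulator Irf7 stood at 247, 92.2 and 42.2 CPM, 5.84-fold lower at day 14.

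Of the 12 interferon genes, 4 were lower at day 7 (Isg15, Irf7, Bst2 and Rsad2), 11 were lower at day 14, beside 4.08% and 5.16% of all genes, and none was higher. The median log2 ratio was −0.83 at day 7 and −2.28 at day 14. Interferon genes were also lower in other cells: the medians were −1.15 and −1.79 in other macrophages and −0.79 and −0.74 in the remaining cells. From day 7 to day 14 the median was −1.54 in members, with 8 of 11 genes lower, against −0.53 in other macrophages and −0.07 in the remaining cells. The remaining cells held Isg15 at 101, 33.5 and 24.0 CPM, above the members at day 14. In the naïve library 10 of 47 members held 65.4% of the 717 interferon UMIs. At day 7 10 of 132 members held 40.4% of 2156, and at day 14 10 of 176 held 27.4% of 1121. Such a share also depends on the number of members. For the 3 C1q genes the 10 highest members held 46.4%, 19.2% and 16.2% of UMIs, so these shares do not set the naïve library apart. The per-cell median of the summed interferon list stood in the order naïve, day 7, day 14, at 3155, 1863 and 1000 CPM.

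The ISRE core, spelled GAAANNGAAA and searched on both strands, was in 1131 of 32851 RefSeq promoter windows (3.44%). Of the 12 interferon genes 9 had a window, and 6 of these held the core: Ifit1, Ifit3, Isg15, Bst2, Ifitm3 and Rsad2. The stretch around 1 match in each of 4 promoters is shown on the gene's strand, with that match in capitals. These are 4 of the genes lower at day 14 that held the core. Each of the 4 promoters held more than 1 match, and some of the others lie in the shown stretches without capitals. The Isg15 stretch is at chr4:156200856-156200915 and the Ifitm3 stretch at chr7:141010708-141010767, both on the minus strand. The Ifit1 stretch is at chr19:34640779-34640838 and the Ifit3 stretch at chr19:34583348-34583407, both on the plus strand with the core on the opposite strand.
Isg15: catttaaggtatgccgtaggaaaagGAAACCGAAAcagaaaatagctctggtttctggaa
Ifitm3: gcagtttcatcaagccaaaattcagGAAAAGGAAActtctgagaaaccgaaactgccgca
Ifit1: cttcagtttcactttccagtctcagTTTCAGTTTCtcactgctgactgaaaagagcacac
Ifit3: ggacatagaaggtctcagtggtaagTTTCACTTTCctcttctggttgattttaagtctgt
The windows of Ifit2, Irf7 and Oasl2 held no match, and no binding was measured here.

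**Figure D5:**
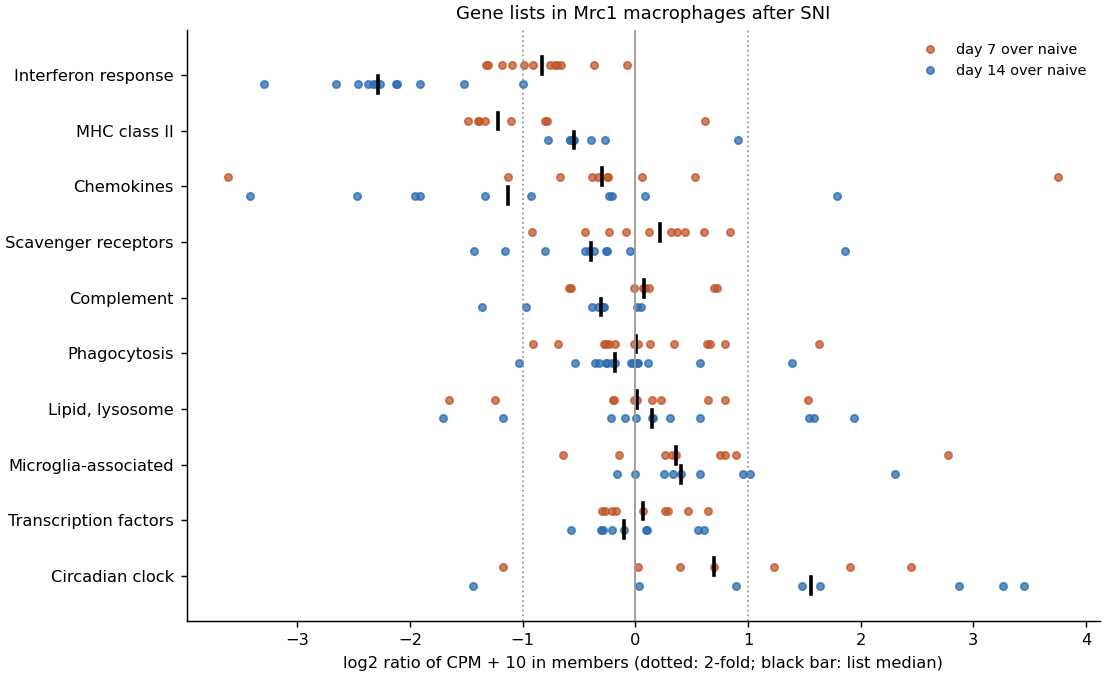
Per-gene log2 ratios of (CPM + 10) levels in members, day 7 and day 14 over naïve, for 10 gene lists; each point is 1 gene, black bars are list medians and dotted lines mark 2-fold. The interferon list has a median of −0.83 at day 7 and −2.28 at day 14, and the class II list −1.22 and −0.55.

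A few lysosome and lipid genes passed 2-fold, in both directions, while the list as a whole was near level. Ctsd, the lysosomal protease cathepsin D, stood at 640 CPM (499 to 808), 1865 CPM (1756 to 1979) and 2486 CPM (2375 to 2601), 2.92-fold (2.29 to 3.77) and 3.89-fold (3.06 to 5.01) the naïve level at days 7 and 14. It was at 343, 362 and 357 CPM in the remaining cells, and at 676, 1409 and 982 CPM in other macrophages. A Ctsd UMI was found in 57.4%, 87.1% and 82.4% of members, against 63.1%, 69.4% and 68.9% of the remaining cells, and 1 day 14 member held 310 UMIs. The proteases Ctsb (2623, 2916 and 2932 CPM) and Ctss (1801, 1789 and 1991 CPM) were level. The lipid receptor Trem2 stood at 229, 405 and 344 CPM, inside 2-fold. Lower at both days were Plin2, a coat protein of lipid droplets (292, 118 and 124 CPM), and the lipase Lpl (91.4, 22.2 and 21.1 CPM). Apoe, the most abundant of these transcripts, stood at 34623, 30453 and 29818 CPM. In the list, 1 of 11 genes was higher and 2 lower at day 7, beside 7.91% higher and 4.08% lower of all genes. At day 14 3 of 12 were higher and 2 lower, beside 9.36% and 5.16%. The median log2 ratio of the list was 0.02 at day 7 and 0.15 at day 14, beside 0.05 over all genes at both days. Of the 3 higher at day 14, Cd9 (64.0, 76.9 and 212 CPM in members) and Fabp5 (36.6, 32.5 and 125 CPM) stood in the remaining cells at 1570 and 315 CPM at day 14, above the members. The lipid-associated genes Gpnmb (0, 3 and 10 UMIs) and Spp1 (0, 1 and 25 UMIs) stayed sparse.

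Scavenger and uptake receptors were mostly level. Of 10 scavenger genes tested, 0 passed 2-fold at day 7 (median log2 ratio 0.22). At day 14 Scarb1 was higher and Cd36 and Mgl2 lower (median −0.39), beside 9.36% and 5.16% of all genes. Scarb1 had 0 naïve UMIs, and its 26.4 CPM at day 14 lay under the naïve limit of 27.4 CPM. The remaining cells held Scarb1 at 85.2, 76.8 and 76.3 CPM, above the members at day 14. Mgl2, a galactose-type lectin, stood at 1426, 1047 and 524 CPM, 2.72-fold (2.25 to 3.28) lower at day 14. Cd36, a receptor for fatty acids, stood at 338, 174 and 146 CPM. Cbr2 stood at 631, 859 and 528 CPM and Clec10a at 247, 449 and 239 CPM. Among phagocytosis genes, Itgam, the integrin chain of complement receptor 3, stood at 101, 331 and 280 CPM, 3.30-fold (1.80 to 6.71) and 2.78-fold (1.52 to 5.66) the naïve level, while Fcgr1, a high-affinity antibody receptor, stood at 585, 482 and 281 CPM. Itgam was 249, 325 and 233 CPM in other macrophages, which were thus level where the members differed. In the complement list Cfp, properdin, was lower at day 14 (311, 330 and 115 CPM), while C1qa (6106, 6044 and 5051 CPM) and C1qb (4223, 4438 and 3364 CPM) were level. Slc40a1, the 1 iron gene past 2-fold, stood at 155, 120 and 59.4 CPM, 2.62-fold (1.40 to 4.66) lower at day 14.

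Genes best known from microglia were measured in members. Cx3cr1, the fractalkine receptor, stood at 887, 803 and 1062 CPM, and the purinergic receptor P2ry12 at 82.3, 106 and 112 CPM. Tmem119, a microglia marker, had 1 naïve UMI and stood at 9.14, 121 and 84.5 CPM, a ratio of 13.3 (2.31 to 531) at day 7 and 9.24 (1.60 to 371) at day 14. Other macrophages held it at 47.4, 315 and 114 CPM, above the members in each library. Of this list 1 of 9 genes was higher at day 7 and 2 at day 14 (Tmem119 and Olfml3). None was lower, and 7.91% and 9.36% of all genes were called higher at these days. Olfml3 stood at 45.7, 83.7 and 103 CPM, with a day 14 ratio of 2.25 whose interval (0.925 to 7.13) reached below 1. Transcription factors of the lineage were level: Spi1 at 402, 347 and 327 CPM and Irf8 at 329, 290 and 352 CPM, with 0 of 9 past 2-fold at either day. The Csf1 axis (0 of 4) and the purinergic list (0 of 6) held no call at either day.

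Genes named by the size of their ratio alone were mostly low in naïve members. At day 14 the highest ratios beside the clock genes were those of Abcg1, a cholesterol exporter, Oxa1l, Gpr155, Herpud2, Mesd and Sowahc, each with 0 naïve UMIs. At day 7 Pign, Smim15, Oxa1l and Nfyc likewise had 0 or 1 naïve UMIs. On the lower side at day 7, Gbp6, Igsf9, Zbtb16 and Adgre4 had 6, 8, 8 and 7 naïve UMIs. These ratios rest on few molecules. Among genes with a mean of at least 100 CPM, chosen after their values were seen, Wfdc17, a secreted protein of activated macrophages, stood at 128, 586 and 117 CPM, 4.58-fold (2.69 to 8.46) higher at day 7 and 4.99-fold lower again at day 14. Nxpe5 had 2 naïve UMIs and stood at 18.3, 215 and 71.3 CPM, a ratio of 11.8 (3.19 to 98.3) at day 7. Cd38, an enzyme that splits NAD, stood at 174, 439 and 297 CPM. Aoah, which inactivates endotoxin, stood at 64.0, 193 and 144 CPM, and the RNA sensor Tlr7 at 73.1, 161 and 133 CPM. These 5 genes shared a maximum at day 7. The heat-shock gene Hspa1b stood at 292, 32.5 and 85.8 CPM, 9.01-fold and 3.41-fold lower after SNI, and the chaperone Hspa8, named after its values were seen, at 2331, 1332 and 734 CPM. Both also stood lower in the remaining cells, at 228, 135 and 128 CPM for Hspa1b and 1351, 1022 and 959 CPM for Hspa8. Fkbp5, a target of glucocorticoids, stood at 165, 68.3 and 9.24 CPM, 17.8-fold (7.10 to 50.4) lower at day 14.

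Immediate early and heat-shock genes, which dissociation can induce, were also listed, and 10 were tested. At day 7 Ier2 was higher and Ier3, Hspa1a and Hspa1b lower, beside 7.91% and 4.08% of all genes. At day 14 Ier2 was higher and Hspa1a and Hspa1b lower, beside 9.36% and 5.16%. Hspa1a stood at 101, 12.0 and 18.5 CPM in members and 119, 85.0 and 49.5 CPM in other macrophages. Of 4 matrix genes tested, Mmp14, a membrane-bound protease, was higher at both days on 1 naïve UMI, and Plau, the urokinase, was lower (73.1, 20.5 and 23.8 CPM).

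Clock genes leaned the same way in members and in the remaining cells, with a larger median in members at day 14. Per3 had 0 naïve UMIs and stood at 44.4 and 99.0 CPM at days 7 and 14, at least 1.62-fold and 3.61-fold higher than the naïve limit of 3 UMIs. Arntl, the activator of the clock, stood at 128, 51.3 and 40.9 CPM, 2.50-fold and 3.13-fold lower. In the remaining cells Per3 stood at 47.5, 83.2 and 93.3 CPM and Arntl at 30.3, 20.3 and 13.9 CPM, in the same directions. Of the clock list 3 of 7 genes were higher and 1 lower at day 7, and 5 of 8 higher and 1 lower at day 14, beside 7.91% and 4.08% of all genes at day 7 and 9.36% and 5.16% at day 14. The medians were 0.70 and 1.56 against 0.58 and 0.56 in the remaining cells. The 15 clock genes had only 35 naïve UMIs in members, and 8 of them had 0. Among these 8 were Per3, Nr1d1 and Bhlhe41, all called higher at day 14, so the member medians rest on few naïve molecules. The summed list stood at 320, 424 and 628 CPM in members, below the 600, 770 and 800 CPM of the remaining cells. The hour of dissection was not used here, and its part in the result was not tested.

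Satellite glia RNA was present in some day 14 members. All 5 listed satellite glia markers had UMIs in each library, and their summed level was 274, 195 and 2131 CPM in members, 190, 806 and 1782 CPM in other macrophages and 4905, 5586 and 4589 CPM in the remaining cells. Fabp7, a fatty acid binding protein of these glia, stood at 137, 102 and 1048 CPM. Its RNA came from few cells: 9 day 14 members with at least 5 Fabp7 UMIs held 91.8% of the Fabp7 UMIs, but 3.59% of those of Mrc1. These 9 cells had a median of 11331 UMIs. Without such members, of which day 7 had 1, Fabp7 at day 14 over naïve had a log2 ratio of −0.43, and the genes called higher at day 14 over day 7 numbered 42 in place of 108. The share of class II low members was then 17.0%, 48.1% and 24.6%. Gpm6b (9.14, 68.3 and 597 CPM) and Sparc (64.0, 92.2 and 534 CPM), also abundant outside the macrophages, are read with these cells.

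Markers of further cell types are given as sums, in which some genes were held low by the rule itself: Ccr2 at 0, and Pecam1, Cdh5, Mag, Prx, Snap25, Rbfox3 and S100a9 under its limits. T and NK cell genes had 0 UMIs in all libraries. The monocyte list summed to 9.14, 6.83 and 3.96 CPM, with Ly6c2, outside the rule, also at 0, and the endothelial list to 9.14, 27.3 and 25.1 CPM. The dendritic list summed to 146, 23.9 and 23.8 CPM, with Flt3 and Clec9a at 0. The B cell list summed to 439, 350 and 446 CPM with Cd79a and Ms4a1 at 0. The neuron list stood at 54.8, 97.4 and 92.4 CPM, the neutrophil list at 91.4, 85.4 and 137 CPM and the fibroblast list at 421, 166 and 430 CPM. The mast cell list summed to 0, 15.4 and 1.32 CPM and the mural list to 27.4, 12.0 and 13.2 CPM. Genes of myelinating Schwann cells summed to 558, 576 and 806 CPM, against 15187, 19177 and 15687 CPM in the remaining cells.

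Against other macrophages, the members differed in the same direction in each library for 94 genes that were higher (1.23% of 7642) and 108 that were lower (1.41%). Both groups were cut by measured RNA, so these values only describe the cells. Among genes outside the rule, Ccl12 was 10.6-fold, 4.58-fold and 6.24-fold higher in members, Cd38 7.32-fold, 6.23-fold and 9.01-fold, and Ltc4s, the enzyme that makes leukotriene C4, 4.62-fold, 3.53-fold and 16.2-fold. Slc40a1 was at least 4.37-fold higher in naïve members, 57.7-fold at day 7 and 10.8-fold at day 14. Lower in members were genes known from dendritic cells and monocytes. Napsa had 0 UMIs in members, against 202, 122 and 147 CPM in other macrophages. Itgax, the CD11c integrin chain, had 0, 1 and 0 UMIs against 130, 102 and 86.1 CPM. The lectin Cd209a was 8.05-fold, 41.3-fold and 20.7-fold lower, and S100a4 stood at 0, 6.83 and 33.0 CPM against 937, 537 and 308 CPM. Of the listed groups, 7 of 11 scavenger genes and 5 of 10 chemokines were higher in members in 3 of 3 libraries, counts that include the rule genes Mrc1, Stab1 and Pf4. Class II genes leaned the other way, with medians of −0.69, −1.31 and −0.99 on the log2 scale and 1 of 9 genes lower throughout.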

How the data were processed

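Single-cell libraries were made with 10x Chromium 3′ chemistry (v3). Cell Ranger 3.0.2 and the build mm10 are given in the submitters' processing notes; the annotation release is not given in the sources used here. The authors deposited filtered matrices of UMI counts for 31053 genes, and these counts were used as deposited. Libraries held 3748, 3281 and 4908 barcodes with 23107376, 22343246 and 36550911 UMIs. The authors' integrated object was not used here, and 0 columns were left out.

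Members were picked from the counts of each cell, with no clustering. Their counts were summed per library and scaled to CPM; ratios were taken on log2(CPM + 10), whereas printed folds are plain CPM ratios with conditional binomial intervals. Symbols with several IDs (35) were kept apart. With 1 library per condition no differential test was run. Shares have Clopper-Pearson and levels exact Poisson intervals. A level of 0 was set to a floor of 3 UMIs per library for bounds on folds. Doublets were called with Scrublet (expected rate 0.05) and kept. Named genes were the 8 highest and 8 lowest ratios of each injured library over naïve that reached the level of cells outside the macrophages, the 10 highest and lowest against other macrophages, and the listed genes; genes outside this rule are marked as chosen after their values were seen. Members and lists were chosen with earlier results of these data known.

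Alternatives changed the cell filter, member rule, depth (thinning to 2000 UMIs), normalization (TMM, median of ratios), cell weight, pseudocount (1 CPM) and low-count filter. Thinning left out cells with fewer than 2000 UMIs. Code was checked on simulated data. Tools were Python 3.11.15, numpy 2.4.6, scipy 1.17.1, scanpy 1.11.5, matplotlib 3.10.9, R 4.3.3, edgeR 4.0.16 (TMM) and DESeq2 1.42.0 (size factors). Promoter windows came from RefSeq (GRCm38.p6). A few listed genes are not reported here.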

Additional observations from a re-analysis of the deposited data

Results flagged for a closer look

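Ratios over naïve had counting intervals in both members and other macrophages for 645 pairs of values of the genes examined, and 188 of these pairs lay on opposite sides of 1. For 9 pairs, each of another gene, both intervals also lay wholly on opposite sides of 1, and these are given here. The genes examined included genes already called past 2-fold in members over naïve, among them Wfdc17, Eps8, Atp1b3, S100a6 and Brk1. For such genes a member ratio away from 1 was favoured by the choice. How many such pairs counting error alone would give was not worked out. With 1 library per condition this difference was not tested, and each value below is the log2 ratio over naïve in members minus that in other macrophages.

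At day 7, Wfdc17 gave 2.88: members stood 4.58-fold higher than naïve, and other macrophages at 0.624 of their naïve level. Eps8, an actin regulator, gave 2.56 at day 7, with 82.3 and 202 CPM in naïve and day 7 members against 285 and 118 CPM in other macrophages. Atp1b3, a subunit of the sodium pump, gave 2.01 at day 7 (82.3 and 164 CPM against 202 and 99.5 CPM), and the remaining cells held it at 620 and 606 CPM, above the members. Cbr2, a carbonyl reductase, gave 1.56 at day 7, with 631 and 859 CPM in members and 297 and 137 CPM in other macrophages. The complement receptor C5ar1 gave −1.72 at day 7, at 0.666 of the naïve level in members and 2.20-fold higher in other macrophages. Ccl12 gave −1.21 at day 7 (1755 and 1339 CPM in members, 166 and 292 CPM in other macrophages), and Apoe gave −0.55 at day 7.

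At day 14, S100a6, a calcium-binding protein, gave 2.27, with 101 and 255 CPM in naïve and day 14 members against 1245 and 656 CPM in other macrophages. The remaining cells held S100a6 at 2766 and 2547 CPM, above the members. Brk1, an actin regulator, gave 1.52 at day 14 (119 and 220 CPM against 403 and 260 CPM). The naïve library held only 23 other macrophages, so each of these values rests on few naïve cells.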

How the results depend on the processing

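No paired analysis was possible because there is a single library per condition. With Ccr2 not used, members were 80.0% of naïve, 92.0% of day 7 and 88.1% of day 14 macrophages, and 7.27% and 6.19% of kept cells at days 7 and 14. With a stricter cell filter (1000 genes, mitochondrial share up to 10%) they were 7.48% and 6.75% of kept cells. With 0 UMIs of each excluded pair they were 4.03% at day 7. With kept cells thinned to 2000 UMIs, which leaves out cells with fewer UMIs, they were 3.78% at day 14. The share stayed above the naïve share under each of the 9 alternatives.

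Counts of genes past 2-fold depended on the filters. With the stricter cell filter 780 were higher and 406 lower at day 7 over naïve, 878 higher at day 14 over naïve, and 129 lower at day 14 over day 7. With Ccr2 not used 136 were lower at day 7 and 197 at day 14 over naïve, and 55 were higher and 46 lower at day 14 over day 7. Thinned to 2000 UMIs, 477 were lower at day 7 and 535 at day 14 over naïve, and 132 at day 14 over day 7. With a UMI in at least 5% of members 814 were higher and 411 lower at day 7, 1120 higher at day 14 over naïve, and 320 higher at day 14 over day 7. With no filter on low counts the numbers were 1032 and 565 at day 7, 1438 and 539 at day 14 over naïve, and 443 and 137 at day 14 over day 7. A pseudocount of 1 CPM gave 212 and 154 at day 14 over day 7. Genes with a mean of at least 100 CPM, an alternative chosen after seeing the data, gave 35 and 36, 37 and 86, and 19 and 39. Leaving out members with 5 or more Fabp7 UMIs, also chosen after seeing the data, gave 42 higher at day 14 over day 7.

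Of 1106 values of 79 single-gene ratios under the alternatives, 1006 moved by less than their interval and 97 moved further. Another 3, of ratios past 2-fold in the main setting, were counted as turned in direction. Ccl2 at day 14 over naïve was 0.37 on the log2 scale when thinned, and Fabp7 at day 14 over naïve was −0.15 when thinned and −0.43 without members with 5 or more Fabp7 UMIs. Some ratios inside 2-fold also changed sign and are among the other values. At day 7 over naïve Ccl2 went from −0.67 to 1.43 when thinned, and Fabp7 from −0.39 to 0.81 with Ccr2 not used. Ccl12 went from −0.39 to 0.15 with at least 6 UMIs of the 4 genes, and Ccl7 from 0.53 to −0.19 with Ccr2 not used. The causes were not tested beyond the change of cells or genes in each setting. The naïve library, with 47 members, limits every ratio over naïve, since 1 UMI there is worth 9.14 CPM.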

Other observations

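Genes that differed between the injured libraries, named after their values were seen, included the chemokine Ccl5 (36.6, 30.7 and 102 CPM in naïve, day 7 and day 14 members), the fatty acid transporter Abcd2 (45.7, 30.7 and 91.1 CPM) and the class I gene H2-Q7 (73.1, 39.3 and 106 CPM). Each was highest at day 14. The lowest value was that of day 7, but 1 naïve UMI is worth 9.14 CPM, so the order of naïve and day 7 rests on few molecules. The log2 ratio of Ccl5 at day 14 over day 7 was 1.45, and 0.55 with Ccr2 not used. The values of some further genes known to respond to interferon, chosen after their values were seen, were as follows. Rtp4 was at 256, 132 and 25.1 CPM, Ifi211 at 311, 125 and 42.2 CPM, Siglec1, the sialoadhesin of macrophages, at 238, 137 and 55.4 CPM, and Oas3 at 128, 27.3 and 9.24 CPM, whereas Ifi207 (347, 357 and 156 CPM) and Parp14 (329, 331 and 110 CPM) were level between the naïve and day 7 libraries and lower at day 14.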
